A study of Mus musculus with 20 samples.

Results

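The comparison described here set hearts that lost Acsl1 beside hearts that kept it, in mice that received vehicle and no rapamycin. It used 10 of the 20 libraries of the series: 5 of the genotype Acsl1H-/- given vehicle, called knockout here, and 5 of the genotype Acsl1flox/flox given vehicle, called control. All were male littermates of the strain C57Bl/J6, injected with tamoxifen at 75 mg/kg on 4 days from an age of 6 to 8 weeks, and their ventricles were taken 2 weeks after tamoxifen; vehicle was injected daily for 2 weeks. Tamoxifen was thus shared by both genotypes, and no label names the Cre line, so an effect of that Cre with tamoxifen cannot be told apart from the loss of Acsl1. The remaining 10 libraries, 5 knockout and 5 control given rapamycin at 1 mg/kg, entered the fit for the spread and serve below as a separate arm.

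Acsl1 encodes the main long-chain acyl-CoA synthetase of heart muscle. It joins coenzyme A to long-chain fatty acids, the step that commits them to the carnitine shuttle and to beta-oxidation in mitochondria, the usual chief source of energy of the adult heart. When fatty acids cannot be activated, the heart can draw on glucose, and mTOR, the growth kinase that rapamycin inhibits, is known to respond to such a change of fuel. The series asks how the ventricle responds early to this loss.

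Values are gene-level RNA sequencing estimates scaled by the authors to a common upper quartile, close to 1000 in every library. They are not divided by gene length, so levels are compared between libraries and not between genes. Changes are differences of log2(value + 1), knockout minus control, and they understate the change of genes near 0. The implied depth was 11.5 to 20.2 M reads per vehicle library. Genes that reached a value of 10 in 5 or more of the 20 libraries were tested, which 13548 of 21705 did, and a gene is called here when limma's test, adjusted by the Benjamini-Hochberg method over all of them, gave an adjusted p under 0.05. The design text of the series states 5 biological replicates per condition; p-values measure the spread between these libraries. Transcripts of heart muscle cells were abundant: all 12 cardiomyocyte markers were tested, and none was at 0 in any group. These mark atria as well as ventricles, and the atrial markers, which were high in some knockout libraries, are given below.

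The pair of control libraries 1 and 3 stood apart from the other vehicle libraries. On the first principal component, control vehicle libraries 1 and 3 scored 73.4 and 84.6, and the remaining 8 vehicle libraries lay between -41.7 and 19.3. Their long transcripts were also low against their short ones. Each gene's log2 value was taken as its deviation from the gene's mean over all libraries. The median deviation of long genes minus that of short genes was -0.88 and -0.95 in control libraries 1 and 3. It was -0.36 to 0.47 in the other 8, with knockout library 5 the lowest of those. Since both libraries belong to the control group, the change of a named gene is also given without them where that moved it by over 1.5 times or turned it, and some results are given with this long-minus-short score as a covariate. Between the genotypes the score lay at 0.18 ± 0.33 in knockout and -0.34 ± 0.53 in control libraries (mean ± SD, n = 5 each; exact permutation test, two-sided, p = 0.119).

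The knockout changed few genes past the threshold. Of the 13548 genes, 33 were called (0.244%), 27 of them higher (0.199%) and 6 lower (0.0443%) in knockout hearts. After quantile normalization in place of the authors' scaling the split was 25 higher and 22 lower of 47. Sorted by known role after the calls were seen, they included secreted matrix and matrix-associated proteins, adhesion and immune signalling genes, receptors and channels, enzymes of lipid metabolism, an enzyme of mitochondrial folate metabolism and, on the lower side, haemoglobin and a glutathione-degrading enzyme, beside genes of other roles. At an unadjusted p under 0.05 there were 4315 genes (31.8%), 2681 higher (19.8%) and 1634 lower (12.1%), and 991 genes more lay at an adjusted p between 0.05 and 0.1. These shares over all genes are the ones to set beside each list count below. The knockout and control libraries did not overlap for 314 genes (2.32%), 196 higher (1.45%) and 118 lower (0.871%), and these held 32 of the 33 called genes. The exception was Col8a1, whose knockout library 4 lay below control library 4. All 33 moved in 1 direction in each of the 4 sequencing pools, as did 5390 of the 13548 genes tested.

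**Figure D1:**
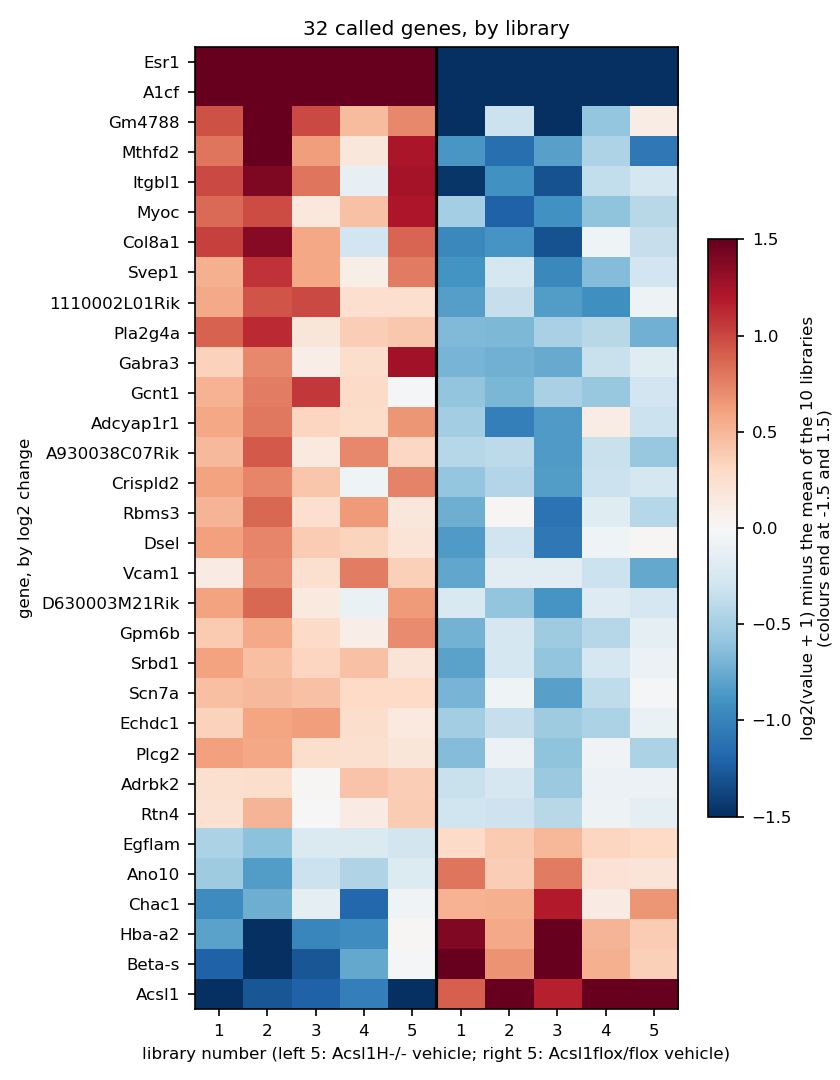
The 32 called genes described (rows, by log2 change) in the 10 vehicle libraries (columns, knockout left of the line, control right of it). Colour is log2(value + 1) minus the gene's mean over the 10 libraries, ending at -1.5 and 1.5; control libraries 1 and 3 hold the darkest blue of many raised genes, and knockout library 4 is paler than its group for Itgbl1, Col8a1 and Crispld2.

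The called genes that rose were mostly of moderate level. Their median value over the 10 libraries was 203, against 412 over all genes tested, and 5 of the 27 averaged under 100. The median of their longest annotated transcript was 4443 bases, against 3450 bases over all genes, while the 6 that fell had a median level of 4043 and a median length of 2145 bases. Of the 27, 15 had a log2 change over 1, and of the 6, 4 had one below -1. The span, introns included, of 14 of the 33 overlaps another annotated gene in the RefSeq annotation of GRCm38.p6. Overlap of exons was not examined, and the sources used here do not state that reads were counted by strand. Whether reads of the partner entered the values of those 14 was not tested.

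The targeted gene bore out the labels. Acsl1 stood at 996, 1402, 1467, 1682 and 740.5 in knockout libraries, against 6373, 13112, 7659, 9844 and 13431 in control libraries. Every knockout library lay below every control library, and the knockout mean was 12.5% of the control mean. The log2 change was -3.00 (SE 0.28, adjusted p = 3.67e-06 by limma; exact permutation test over all 252 regroupings, two-sided, p = 0.00794, the smallest that 5 against 5 libraries allow). Without control libraries 1 and 3, the lower Acsl1 libraries of their group, it was -3.32, and with the length score as a covariate -3.59. The sister enzymes that activate long-chain fatty acids were not called. Acsl3 ranged over 77.9 to 203 in knockout libraries and 46.7 to 165 in control libraries (log2 change 0.67, SE 0.31, adjusted p = 0.147), Acsl4 over 386 to 511 in knockout libraries and 309 to 463 in control libraries (log2 change 0.16, adjusted p = 0.428) and Acsl5 over 473 to 687 in knockout libraries and 461 to 765 in control libraries (log2 change 0.028, adjusted p = 0.898), so the groups overlapped for each. In all, 4 such enzymes were tested. Acsl3, Acsl4 and Acsl5 had changes of 0.23, -0.046 and 0.14 without control libraries 1 and 3.

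A pair of genes marked the knockout genotype itself. Esr1, the gene of the estrogen receptor, had values of 53678, 60892, 62622, 39614 and 46481 in knockout libraries, against 125, 139, 239, 152 and 84.2 in control libraries. Its mean was 356-fold higher in knockout hearts (log2 change 8.53, SE 0.21, adjusted p = 1.03e-16), with no control library near the knockout range. The inducible Cre transgenes in common use carry part of the estrogen receptor; whether these reads came from such a transgene or from the mouse gene was not tested. A1cf, which guides the enzyme that edits apolipoprotein B transcripts, was at 0 in the 5 controls of this arm and at 37.4, 22.5, 37.8, 18.7 and 22.5 in the knockout libraries (adjusted p = 3.67e-06). For these reads too, their origin in a transgene or in the mouse gene was not tested. Acsl1, Esr1 and A1cf were the 3 genes called in every fit that tested them.

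**Figure D2:**
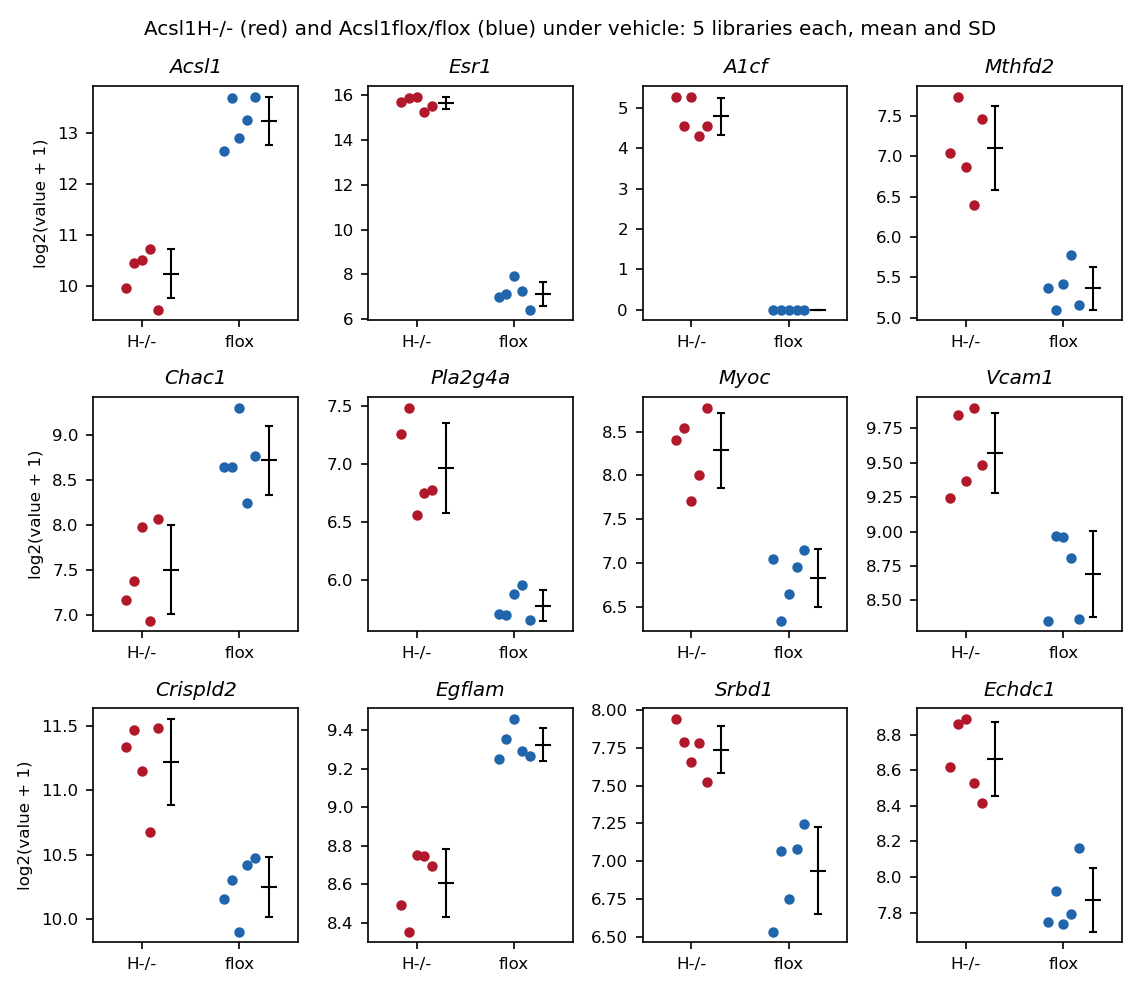
log2(value + 1) of 12 called genes in 5 knockout (red, left) and 5 control (blue, right) vehicle libraries, with the mean and SD of each group as a bar beside the points. None of the 12 pairs of groups overlaps; A1cf is listed at 0 in all 5 control libraries.

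Genes that handle fatty acids downstream of the lost step were not called. Of 16 tested beta-oxidation genes none was called, 7 were higher and 1 lower at an unadjusted p under 0.05, and their median log2 change was 0.16, against 0.072 over all genes. Acadm, the medium-chain acyl-CoA dehydrogenase, stood at 32874, 38201, 40670, 38353 and 28519 in knockout libraries, against 22732, 31029, 23928, 28522 and 30289 in control libraries (log2 change 0.39, SE 0.12, adjusted p = 0.0918). Only knockout library 5 fell within the control range. Etfa and Etfdh, which pass electrons from these dehydrogenases to the respiratory chain, had log2 changes of 0.42 and 0.40 (adjusted p = 0.0966 and 0.0974). Without control libraries 1 and 3 the changes of the 3 genes were 0.24, 0.27 and 0.33.

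The carnitine shuttle, which moves activated fatty acids into mitochondria, gave a like picture. None of its 10 tested genes was called and 4 were higher at an unadjusted p under 0.05. Cpt1a, the liver-type carnitine palmitoyltransferase, ranged over 1429 to 2083 in knockout libraries and 705 to 1885 in control libraries (log2 change 0.58, SE 0.22, adjusted p = 0.11). Acaca, which makes the malonyl-CoA that inhibits it, had a log2 change of 0.71 (adjusted p = 0.118), and Crat, carnitine acetyltransferase, of 0.27 (adjusted p = 0.147). All 3 changes shrank without control libraries 1 and 3, to 0.25, 0.24 and 0.052. The muscle-type Cpt1b had values of 19802, 19848, 20336, 18644 and 20313 in knockout libraries, against 19498, 21012, 24939.7, 17596 and 16658 in control libraries, which overlap fully (log2 change 0.0031, adjusted p = 0.985). Cpt1b had a change of 0.11 without control libraries 1 and 3.

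Targets of PPAR alpha, the receptor that fatty acids activate, did not share a direction. Of 20 tested, none was called, 3 were higher and 3 lower at an unadjusted p under 0.05. Cyp4b1, a cytochrome P450 of fatty acid hydroxylation, stood at 677, 652, 712, 781 and 611 in knockout libraries, against 955, 1016, 1090, 869 and 856 in control libraries. The groups did not overlap, but the gene missed the threshold (log2 change -0.48, SE 0.11, adjusted p = 0.0717). Ppara itself had a log2 change of 0.54 (adjusted p = 0.129) and the coactivator Ppargc1a of 0.55 (adjusted p = 0.193). The readily induced targets Pdk4 and Ucp3 varied several times over within the control group, with Pdk4 at 37133, 44502, 28835, 84175 and 54325 in knockout libraries, against 11924, 28469, 37204, 45987 and 138099 in control libraries, and their changes of 0.29 and 0.24 (adjusted p = 0.727 and 0.752) turned to -0.28 and -0.34 without control libraries 1 and 3. Ppara and Ppargc1a had changes of 0.17 and 0.21 without control libraries 1 and 3.

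Glycolytic genes lay lower rather than higher. None of 23 was called, 5 were higher and 10 lower at an unadjusted p under 0.05, and the median log2 change was -0.28. Slc2a1, the basal glucose transporter, stood at 575, 487, 779, 677 and 739 in knockout libraries, against 1071, 1042, 979, 723 and 761 in control libraries (log2 change -0.49, SE 0.16, adjusted p = 0.0995), and Slc2a4, the insulin-regulated one, had a log2 change of -0.41 (adjusted p = 0.106). Gpi1 and Aldoa, enzymes of the upper part of glycolysis, had -0.33 and -0.48 (adjusted p = 0.0892 and 0.0884), and Hk2, the insulin-regulated hexokinase, had 0.45 (adjusted p = 0.166). The list median was -0.10 without control libraries 1 and 3 and -0.049 with the length score as a covariate. Among 16 glycogen genes none was called. Phkg1, the muscle catalytic subunit of phosphorylase kinase, had a log2 change of -0.60 (adjusted p = 0.0772; -0.60 without both libraries), Pygm, muscle phosphorylase, of -0.24 and the subunit Phkb of 0.47 (adjusted p = 0.111 and 0.109). Slc2a4, Aldoa, Hk2 and Phkb had changes of -0.18, -0.31, 0.11 and 0.11 without control libraries 1 and 3.

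Apart from Acsl1, the called genes held 2 enzymes of lipid metabolism, and both rose. Pla2g4a, the cytosolic phospholipase that frees arachidonic acid from membranes, stood at 153, 179, 93.4, 107 and 109 in knockout libraries, against 51.3, 51.0, 58.0, 61.1 and 49.3 in control libraries. The lowest knockout library was above the highest control library, and the control libraries spread little (log2 change 1.19, SE 0.19, adjusted p = 0.00993). Echdc1, which breaks down ethylmalonyl-CoA, a side product of fatty acid synthesis, had 392, 463, 473, 368 and 341 in knockout libraries, against 214, 242, 212, 220.3 and 285 in control libraries, again without overlap (log2 change 0.79, SE 0.13, adjusted p = 0.0135). Pla2g4a was called in all 10 fits that left out 1 vehicle library and Echdc1 in 7 of them. Without control libraries 1 and 3 neither was called, with changes of 1.20 and 0.70 (adjusted p = 0.13 and 0.26). With the length score as a covariate neither was called either (adjusted p = 0.08 and 0.0735).

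Of the 27 tested genes of arachidonate release and eicosanoids, Pla2g4a was the one called. Ptgs2, the inducible cyclooxygenase that acts on the freed arachidonate, was low throughout, at 44.9, 51.7, 17.9, 33.1 and 65.7 in knockout libraries, against 13.4, 13.7, 6.96, 17.9 and 17.4 in control libraries. Its groups touched closely without overlap, and it missed the threshold (log2 change 1.49, SE 0.34, adjusted p = 0.0655). Pla2g5, a secreted phospholipase, lay the other way, over 1014 to 1849.5 in knockout libraries and 1499 to 3186 in control libraries (log2 change -0.70, SE 0.18, adjusted p = 0.0761). Of 16 genes of fatty acid synthesis and desaturation none was called; Scd1, which desaturates stearate, was above the control range in 4 knockout libraries, at 1148, 689, 446, 1654 and 2020.3 in knockout libraries, against 404, 393, 395, 547 and 459.5 in control libraries (log2 change 1.24, SE 0.38, adjusted p = 0.0918). Fads3, of the fatty acid desaturase family, and Acss2, which activates acetate, had log2 changes of -0.47 and -0.35 (adjusted p = 0.104 and 0.106). Fads3 and Acss2 had changes of -0.28 and -0.23 without control libraries 1 and 3.

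A mitochondrial folate enzyme rose and a glutathione-degrading enzyme fell. Both are known targets of ATF4, the transcription factor that the integrated stress response raises. Mthfd2, which oxidizes methylene-tetrahydrofolate in mitochondria and is low in most adult tissues, stood at 130.2, 212, 115, 83.5 and 175 in knockout libraries, against 40.2, 33.3, 41.8, 53.7 and 34.8 in control libraries. The means differ 3.51-fold (log2 change 1.73, SE 0.27, adjusted p = 0.00625). Chac1, a glutathione-cleaving enzyme, had 142, 165, 250.5, 121 and 266 in knockout libraries, against 397, 400.2, 631, 301 and 435 in control libraries (log2 change -1.22, SE 0.24, adjusted p = 0.0305). For neither gene did the groups overlap, with the knockout above the control for Mthfd2 and below it for Chac1. Mthfd2 was called in all 10 fits that left out 1 library and Chac1 in 5 of them. Without control libraries 1 and 3 neither was called, with changes of 1.75 and -1.05 (adjusted p = 0.0812 and 0.363).

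The promoters of both are shown because the genes share this regulator and differed in direction. The 250 bases before the start of each gene, 5′ to 3′ on the gene's strand, come from RefSeq on the build GRCm38.p6 (Mthfd2 chr6:83317605-83317854, minus strand; Chac1 chr2:119350992-119351241, plus strand). Capitals mark a match, on either strand, to TGATGNAA, the core of the composite CEBP and ATF element.
Mthfd2 promoter: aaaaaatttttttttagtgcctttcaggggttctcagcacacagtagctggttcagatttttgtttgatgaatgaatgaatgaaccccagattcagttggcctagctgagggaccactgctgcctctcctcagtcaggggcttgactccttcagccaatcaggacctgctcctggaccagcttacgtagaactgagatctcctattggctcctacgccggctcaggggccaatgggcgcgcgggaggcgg
Chac1 promoter: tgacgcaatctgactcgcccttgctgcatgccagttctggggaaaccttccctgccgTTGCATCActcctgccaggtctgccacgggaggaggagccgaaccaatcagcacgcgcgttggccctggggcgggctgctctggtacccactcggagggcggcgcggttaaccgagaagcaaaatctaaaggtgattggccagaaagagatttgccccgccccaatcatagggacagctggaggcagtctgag
The Chac1 window holds 1 match, TTGCATCA, on the strand opposite to the gene, 193 bases before the start. The Mthfd2 window holds none, which says only that these letters are not in these 250 bases. Over all 32851 promoter windows of the same length, 1134 (3.45%) hold the motif.

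The rest of the ATF4-responsive list held no further call. Of 36 tested, 1 was called higher and 1 lower, with 9 higher and 6 lower at an unadjusted p under 0.05 and a median log2 change of 0.074. Atf4 itself ranged over 919 to 2016 in knockout libraries and 661 to 1598 in control libraries (log2 change 0.48, SE 0.22, adjusted p = 0.148), Asns, asparagine synthetase, had 0.40 (adjusted p = 0.278) and Trib3, a pseudokinase induced by the same response, -0.021 (adjusted p = 0.927). Of 14 genes of mitochondrial folate and serine synthesis Mthfd2 alone was called. Aldh1l2, the mitochondrial formyl-tetrahydrofolate dehydrogenase, stood at 108, 271, 237, 207 and 65.7 in knockout libraries, against 37.9, 96.1, 11.6, 53.7 and 88.5 in control libraries, with knockout library 5 inside the control range (log2 change 1.74, SE 0.51, adjusted p = 0.0892; 1.02 without control libraries 1 and 3). Psph, the last enzyme of serine synthesis, had -0.43 (adjusted p = 0.117). Asns, Trib3 and Psph had changes of 0.66, 0.026 and -0.21 without control libraries 1 and 3.

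Heat shock genes had a median log2 change of 0.27, against 0.072 over all genes, without a call. Of 15 tested, 6 were higher and 0 lower at an unadjusted p under 0.05, against 19.8% and 12.1% of all genes. Hsph1, a large co-chaperone, stood at 1772, 2143, 1577, 1695 and 1495 in knockout libraries, against 672, 787, 439, 1577 and 1015 in control libraries (log2 change 1.07, SE 0.26, adjusted p = 0.0741), where control library 4 reached the knockout range. Hsp90aa1, the inducible HSP90, had a log2 change of 0.97 and Hspd1, the mitochondrial chaperonin, of 1.00 (adjusted p = 0.0862 and 0.0911), which became 0.61 and 0.45 without control libraries 1 and 3. Of 37 glutathione and antioxidant genes, Chac1 was the one called, and 3 were higher and 10 lower at an unadjusted p under 0.05. The glutathione transferases Gstm2 and Gstp1 had -0.60 and -0.57 (adjusted p = 0.0966 and 0.0917); the list median of -0.33 was 0.033 with the length score as a covariate. Hsph1, Gstm2 and Gstp1 had changes of 0.67, -0.32 and -0.32 without control libraries 1 and 3.

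Secreted and matrix proteins were among the called genes. Of 45 tested matricellular and matrix genes, 4 were called higher and 1 lower, and the median log2 change was 0.83. At an unadjusted p under 0.05, 30 were higher and 1 lower. Over all genes tested, 0.199% were called higher and 0.0443% lower, and at that unadjusted p 19.8% were higher and 12.1% lower. The list was drawn up with results of these data known, so its count is a description. Crispld2, a secreted protein with a CAP domain, stood at 2589.8, 2832, 2270.4, 1635 and 2867 in knockout libraries, against 1138, 1261, 956, 1368 and 1424 in control libraries. Every knockout library was higher than every control library (log2 change 0.97, SE 0.17, adjusted p = 0.0135). Itgbl1, which carries integrin-like repeats, stood at 369.8, 491, 324, 170 and 443 in knockout libraries, against 67.0, 98.1, 74.2, 143 and 154 in control libraries (log2 change 1.73, SE 0.31, adjusted p = 0.0186). Knockout library 4 was the lowest of its group, and so the closest to the control range, for both genes.

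Myoc, the secreted protein myocilin, stood at 338, 372, 209, 255 and 436 in knockout libraries, against 132, 80.4, 99.8, 124 and 141 in control libraries (log2 change 1.45, SE 0.27, adjusted p = 0.0223). Svep1, a large matrix protein with complement-type repeats, had 581, 849, 596, 423 and 685 in knockout libraries, against 214, 332, 204, 255 and 328 in control libraries (log2 change 1.22, SE 0.25, adjusted p = 0.0456). Neither pair of groups overlapped. Col8a1, a short-chain collagen of vessel walls, stood at 1118, 1414, 817, 449 and 1000 in knockout libraries, against 279, 296, 220.4, 523 and 429.6 in control libraries (log2 change 1.43, SE 0.29, adjusted p = 0.0413), and was the one called gene with overlap. Over the 10 fits that left out 1 library, Crispld2, Itgbl1 and Myoc kept their call in 6, Svep1 in 5 and Col8a1 in 4.

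Egflam went the other way. It encodes pikachurin, a matrix protein that binds dystroglycan, and it stood at 359, 326, 429, 428 and 413 in knockout libraries, against 607, 653, 703, 626 and 614 in control libraries. The spread within each group was small against the gap (log2 change -0.72, SE 0.10, adjusted p = 0.00295). Egflam was called in all 10 fits that left out 1 library. Its change was -0.70 without control libraries 1 and 3 (adjusted p = 0.037) and -0.69 with the length score as a covariate (adjusted p = 0.011).

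The next 3 called genes were on no list that the text describes. Gcnt1, which branches O-linked glycans, ranged over 104 to 219 in knockout libraries and 64.7 to 85.6 in control libraries (log2 change 1.05, SE 0.21, adjusted p = 0.0381). Dsel, named for its likeness to dermatan sulfate epimerase, ranged over 154 to 221 in knockout libraries and 62.6 to 135 in control libraries (log2 change 0.91, SE 0.19, adjusted p = 0.0474). The secreted protein Ndnf, listed under its older symbol A930038C07Rik, ranged over 117 to 200.1 in knockout libraries and 58.0 to 83.5 in control libraries (log2 change 1.03, SE 0.20, adjusted p = 0.029). None of the 3 pairs of groups overlapped, yet leaving out 1 library in turn kept the call of Gcnt1 in 4 of 10 fits, of Dsel in 3 and of Ndnf in 5. The change of Dsel without control libraries 1 and 3 was 0.57 (adjusted p = 0.5).

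The collagens as a list lay high in knockout hearts with 1 call. All 23 tested had a positive change, and 13 were higher at an unadjusted p under 0.05. The list median was 0.97, falling to 0.57 without control libraries 1 and 3. Over all genes tested, 0.199% were called higher, 19.8% were higher at an unadjusted p under 0.05, and the median was 0.072. Col14a1, a collagen that binds fibril surfaces, stood at 428, 651, 378, 462 and 798 in knockout libraries, against 156, 194, 162, 332 and 325 in control libraries, without overlap (log2 change 1.23, SE 0.30, adjusted p = 0.0743), and Col16a1, of the same class, had 1.55 (adjusted p = 0.0684). Cilp and Postn, matrix proteins of activated fibroblasts, varied widely among knockout libraries. Cilp stood at 1371, 2212, 477, 455 and 2777 in knockout libraries, against 228, 177, 181, 483 and 261 in control libraries (log2 change 2.19, SE 0.50, adjusted p = 0.0684), and knockout libraries 3 and 4 lay within the control range. Postn stood at 1683, 2833, 903, 959 and 2597 in knockout libraries, against 569, 459, 325, 923 and 930.3 in control libraries (log2 change 1.44, SE 0.35, adjusted p = 0.0717), and knockout library 3 lay within the control range. Ctgf, a growth factor target also known as Ccn2, ranged over 3587 to 4657 in knockout libraries and 2475 to 8525 in control libraries (log2 change -0.088, adjusted p = 0.827). Ctgf had a change of 0.0089 without control libraries 1 and 3.

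Proteases and growth factor genes that remodel matrix were not called. Among 31 proteases and inhibitors, 11 were higher and 2 lower at an unadjusted p under 0.05, with Adamtsl2 at 1.03, the procollagen protease Adamts2 at 0.93 and the serine protease Htra1 at -0.58 (adjusted p = 0.0862, 0.0892 and 0.0754). Of 8 tested secreted Wnt antagonists none was called and 4 were higher at an unadjusted p under 0.05. Among these 4 was Dkk3, also on the atrial list below, at 3.13, and at 0.87 with the level of the atrial markers as a covariate. Sfrp1 came nearest, at 725, 874, 596, 651 and 1073 in knockout libraries, against 337, 383, 306, 483 and 489 in control libraries, without overlap (log2 change 0.96, SE 0.21, adjusted p = 0.0542), and Sfrp2 and Frzb had 1.30 and 1.46 (adjusted p = 0.0757 and 0.0701). The median of this list, 0.70, was 0.61 without control libraries 1 and 3 and 0.73 with the length score. Of 35 genes of the TGF-beta family none was called. Gdf15, a stress-induced member, had 1.49, Gdf6 1.70 and the receptor Tgfbr1 0.63 (adjusted p = 0.09, 0.0717 and 0.0862).

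Gm4788, listed as a predicted gene, also rose. It had 148, 222, 152, 105 and 125 in knockout libraries, against 15.0, 60.6, 24.1, 50.3 and 81.6 in control libraries (log2 change 1.87, SE 0.36, adjusted p = 0.0289). The groups did not overlap, and control libraries 1 and 3 were the lowest. Gm4788 has relatives alike in sequence, so reads may be shared with them and its value is uncertain. Without control libraries 1 and 3 its change was 1.20 (adjusted p = 0.306).

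Adhesion and immune signalling added 2 more. Vcam1, which binds leukocyte integrins on activated vessels and fibroblasts, stood at 606, 917, 660, 954 and 715 in knockout libraries, against 326, 500.2, 497, 447 and 328 in control libraries (log2 change 0.88, SE 0.16, adjusted p = 0.0177). Its change was little altered by the libraries that stood apart, at 0.85 without them, although it was then no longer called (adjusted p = 0.141). Plcg2, the phospholipase C of immune cells, had 293, 284, 229, 226 and 216 in knockout libraries, against 121, 179, 125, 183 and 136 in control libraries (log2 change 0.75, SE 0.14, adjusted p = 0.028). Of 30 integrin and adhesion genes Vcam1 was the one called; Itga7, the laminin-binding integrin of muscle, had -0.48 and Icam2 -0.60 (adjusted p = 0.0892 and 0.0846). Icam2 had a change of -0.37 without control libraries 1 and 3.

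Receptors, channels and membrane proteins of nerve and muscle were the next kind. Adcyap1r1, the receptor of the peptide PACAP, which raises cyclic AMP, stood at 265, 306, 221, 215 and 280.3 in knockout libraries, against 123, 86.3, 97.4, 191 and 141 in control libraries (log2 change 1.05, SE 0.19, adjusted p = 0.0233). Adrbk2, now named Grk3, a kinase that desensitizes beta-adrenergic receptors, had 689, 704, 590.5, 786 and 753 in knockout libraries, against 464, 488, 397, 549.9 and 549 in control libraries (log2 change 0.53, SE 0.10, adjusted p = 0.0318). The change of Grk3 was small but free of overlap. Its relative Grk5 had 0.61 and the anchor protein Akap6 0.67 (adjusted p = 0.105 and 0.123), and that of Akap6 was 0.20 without control libraries 1 and 3. Of 25 tested genes of adrenergic and PACAP signalling, Adcyap1r1 was the one called from that list. Grk5 had a change of 0.29 without control libraries 1 and 3.

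Scn7a, a sodium channel that senses extracellular sodium, stood at 789, 809, 787, 713 and 715 in knockout libraries, against 357, 551, 327, 443 and 573 in control libraries (log2 change 0.79, SE 0.16, adjusted p = 0.0399). The knockout libraries were tightly grouped and the controls spread. It was the one call among 34 ion channel genes, of which Kcnj5, a subunit of the muscarinic potassium channel, had 0.66 (adjusted p = 0.102). Gabra3, a GABA receptor subunit, ranged over 97.4 to 218 in knockout libraries and 53.4 to 79.8 in control libraries (log2 change 1.07, SE 0.22, adjusted p = 0.0411), and Gpm6b, a proteolipid of glial membranes, over 661 to 1016 in knockout libraries and 379 to 563 in control libraries (log2 change 0.82, SE 0.15, adjusted p = 0.0177). Gria3, a glutamate receptor subunit, was also free of overlap at 43.4, 60.7, 61.6, 36.0 and 39.8 in knockout libraries, against 6.7, 15.7, 9.28, 14.9 and 34.8 in control libraries, but was not called (log2 change 1.69, SE 0.38, adjusted p = 0.0626), and Gabrr2, another GABA receptor subunit, had -1.10 (adjusted p = 0.0892). Kcnj5 had a change of 0.31 without control libraries 1 and 3.

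Glial and nerve markers were set beside these. Of 13 tested, Scn7a was the one called, being on both lists; the adhesion molecule Ncam1 had 0.75 (adjusted p = 0.106). The summed level of the list was 1495 to 2143 in knockout libraries and 1017 to 1414 in control libraries, and no marker was at 0 in all 10. The sum includes the called gene Scn7a, at 713 to 809 in knockout and 327 to 573 in control libraries, so it is not separate from that call. The part of nerve and glia in the receptor and channel results was not tested. Ncam1 had a change of 0.32 without control libraries 1 and 3.

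The remaining called genes have varied roles. Srbd1, a protein with an S1 RNA-binding domain, stood at 246, 220.3, 201, 219 and 183 in knockout libraries, against 91.5, 133, 107, 134 and 151 in control libraries (log2 change 0.80, SE 0.13, adjusted p = 0.00993), with no overlap and a call in all 10 fits that left out 1 library. The non-coding RNA 1110002L01Rik, whose span overlaps the kinesin gene Kif3c, had 121, 158, 164, 97.8 and 97.8 in knockout libraries, against 45.8, 64.0, 45.2, 42.6 and 77.6 in control libraries (log2 change 1.20, SE 0.19, adjusted p = 0.00625) and was also called in all 10. Without control libraries 1 and 3 neither Srbd1 nor 1110002L01Rik was called, with changes of 0.61 and 1.05 (adjusted p = 0.141 for each). Rbms3, an RNA-binding protein, ranged over 209 to 337 in knockout libraries and 85.8 to 188 in control libraries (log2 change 0.97, SE 0.19, adjusted p = 0.029). Rtn4, the reticulon that shapes the endoplasmic reticulum, had the smallest change of the 33, over 2008 to 2887 in knockout libraries and 1513 to 1911 in control libraries (log2 change 0.49, SE 0.097, adjusted p = 0.0325). D630003M21Rik, of no role given here, ranged over 177 to 345 in knockout libraries and 102 to 165 in control libraries (log2 change 0.86, SE 0.17, adjusted p = 0.0381). Ano10, of the anoctamin family of membrane proteins, fell, with 1557, 1261, 1809, 1649 and 1955 in knockout libraries, against 3951, 2917, 3865, 2614 and 2582 in control libraries (log2 change -0.94, SE 0.18, adjusted p = 0.028).

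Genes of hypertrophy and contraction held no call. Of 25 tested hypertrophy and fetal-type genes, 11 were higher and 1 lower at an unadjusted p under 0.05, against 19.8% and 12.1% of all genes. Their median of 0.73 was 0.30 without control libraries 1 and 3, 0.18 with the length score and 0.12 with the level of the atrial markers as a covariate; Nppa, Myl4, Myl7 and Sln are on both this list and the atrial one. Myh7, the slow myosin heavy chain, stood at 27941, 38248, 24835, 31451 and 18928 in knockout libraries, against 7235, 17422, 6265, 21139 and 20787 in control libraries, and its controls split into a low pair, libraries 1 and 3, and 3 others of which 2 reached the knockout range (log2 change 1.10, SE 0.29, adjusted p = 0.0799; 0.48 without that pair). Ankrd1, a stretch-responsive sarcomere protein, had 0.97 (adjusted p = 0.093). Nppb, the stress-induced natriuretic peptide, had 12623, 6525, 5883, 1590.2 and 7761 in knockout libraries, against 21192, 765, 2548, 4626 and 904 in control libraries, where control library 1 held the highest value of all 10 (log2 change 1.02, adjusted p = 0.328). Acta1, skeletal actin, and Myh6, the fast myosin heavy chain, had 0.86 and 0.73 (adjusted p = 0.351 and 0.142). Nppb, Acta1 and Myh6 had changes of 1.95, 1.35 and 0.12 without control libraries 1 and 3.

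Of 26 calcium handling genes none was called and 21 had a positive change. At an unadjusted p under 0.05, 9 were higher and 1 lower, against 19.8% and 12.1% of all genes. The median change over all genes was itself positive, at 0.072. Slc8a1, the sodium-calcium exchanger, ranged over 10420.4 to 14371 in knockout libraries and 8229.9 to 10867 in control libraries (log2 change 0.40, SE 0.13, adjusted p = 0.0966). Itpr1, an intracellular calcium channel, had 0.96 and Orai1, a store-operated channel, -0.58 (adjusted p = 0.0966 and 0.0751). The list median of 0.27 was 0.08 without control libraries 1 and 3. Itpr1 had a change of 0.38 without control libraries 1 and 3.

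The short transcripts of ribosomes and the respiratory chain moved with the length score. Of 76 cytosolic ribosomal protein genes none was called and 47 were lower at an unadjusted p under 0.05. Of 74 oxidative phosphorylation subunits none was called, 1 was higher and 47 were lower. Over all genes tested, 19.8% were higher and 12.1% lower at that unadjusted p. Rpl13 stood at 7088, 4598, 5079.5, 6473 and 10017 in knockout libraries, against 14431, 8253, 14292, 7735 and 7949 in control libraries, with control libraries 1 and 3 the highest and knockout library 5 next (log2 change -0.66, SE 0.21, adjusted p = 0.0966), and Rpl28 had -0.60 (adjusted p = 0.0966). Cox5b, a subunit of cytochrome oxidase, had 14135, 9112, 10131, 13501 and 18561 in knockout libraries, against 30469, 19027, 29984, 15998 and 16833 in control libraries, with control libraries 1 and 3 again the highest (log2 change -0.77, SE 0.21, adjusted p = 0.0847), and Cox5a and Ndufb2 had -0.48 and -0.67 (adjusted p = 0.0966 and 0.102). The list medians of -0.51 and -0.49 became -0.15 and -0.17 without those 2 control libraries, and 0.037 and -0.0069 with the length score as a covariate. The score is computed from these same values. The median longest transcripts of the 2 lists, 1100 and 1003 bases, fall in its short class, so the move towards 0 is partly built in. Rpl13, Rpl28, Cox5b, Cox5a and Ndufb2 had changes of -0.32, -0.36, -0.44, -0.30 and -0.23 without control libraries 1 and 3.

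Growth control genes were not called either. Of 36 genes of the mTOR complexes and their regulators, 8 were higher and 5 lower at an unadjusted p under 0.05. Rps6kb1, the S6 kinase, had a log2 change of 0.73, Eif4ebp1, a translation inhibitor that mTOR switches off, of -0.66, and Akt1s1, an inhibitory subunit of the first complex, of -0.49 (adjusted p = 0.0862, 0.0847 and 0.0857). These are transcript levels and say nothing of the activity of the kinase. Of 31 autophagy and mitophagy genes, 7 were higher and 8 lower: the mitophagy receptor Bnip3 had -0.65, the kinase Pink1 -0.30 and the adaptor Optn 0.66 (adjusted p = 0.0717, 0.0948 and 0.0917). Pink1, at 21213, 21018, 23316, 23600.2 and 26024 in knockout libraries, against 27089, 30384, 27529, 28012 and 28091 in control libraries, did not overlap. Rps6kb1, Eif4ebp1 and Optn had changes of 0.40, -0.44 and 0.35 without control libraries 1 and 3.

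Cell cycle genes lay low on average, again without a call among 34. Their median of -0.24 was about the same without control libraries 1 and 3 (-0.28) and with the length score (-0.24). Ccna2, cyclin A2, stood at 16.9, 22.9, 11.2, 34.6 and 31.6 in knockout libraries, against 35.3, 39.5, 40.6, 43.8 and 46.8 in control libraries, with the groups apart by a narrow gap (log2 change -0.89, SE 0.32, adjusted p = 0.106). Cdk2 had -0.49 and Mcm4, of the replicative helicase, 0.45 (adjusted p = 0.0887 and 0.11). Cdk2 and Mcm4 had changes of -0.29 and 0.24 without control libraries 1 and 3.

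**Figure D3:**
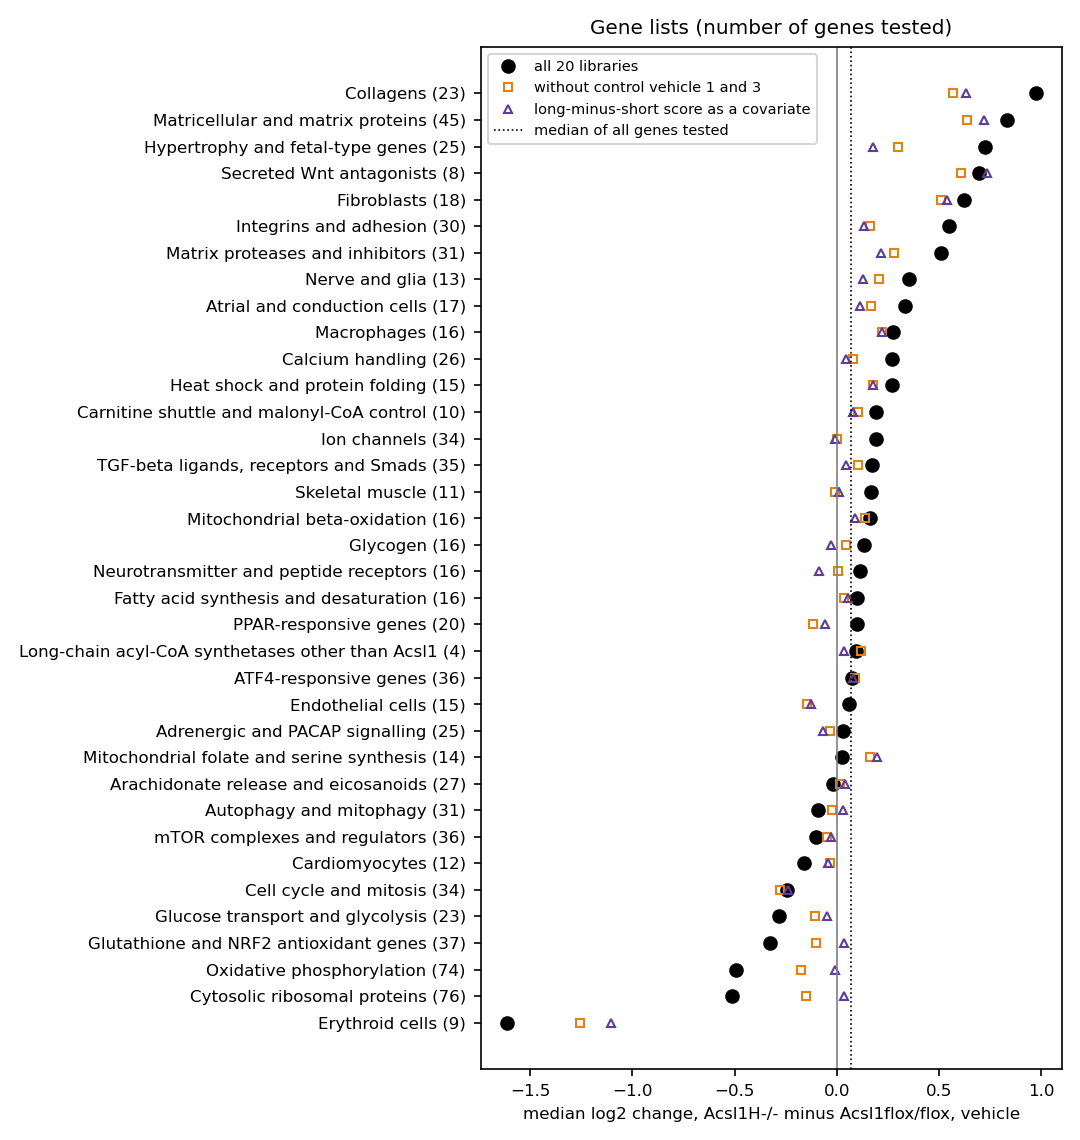
Median log2 change of the 36 gene lists described, knockout minus control under vehicle, with the number of genes tested: all libraries (filled), without control libraries 1 and 3 (squares) and with the long-minus-short score as a covariate (triangles). The ribosomal protein and oxidative phosphorylation lists move to near 0 in the last fit, while the fibroblast, matrix and erythroid lists keep most of their distance from the median of all genes, 0.072.

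A further 19 gene lists, from fatty acid uptake to the circadian clock and interferon-induced genes, held no called gene, and their medians lay between -0.34 and 0.83.

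Cell type markers moved beside these results. All 18 fibroblast markers had a positive change, 12 were higher at an unadjusted p under 0.05 and 5 did not overlap, but none was called. Over all genes tested, 19.8% were higher at an unadjusted p under 0.05 and 1.45% were higher without overlap. Pdgfra, the receptor that marks cardiac fibroblasts, stood at 1754, 2098, 1369.8, 1207 and 1474 in knockout libraries, against 459.8, 779, 513, 824 and 1270 in control libraries, where control library 5 reached the lowest knockout library (log2 change 1.11, SE 0.24, adjusted p = 0.0542). Medag, listed as 6330406I15Rik, had 708, 761, 515, 474 and 600.3 in knockout libraries, against 362, 333, 316, 371 and 457 in control libraries (log2 change 0.72, SE 0.17, adjusted p = 0.0684), and Gsn, gelsolin, had 0.57 (adjusted p = 0.0743). The summed level of the list was 103759 to 175203 in knockout and 74594 to 96358 in control libraries, without overlap, and no marker was at 0. Gsn alone gave 56582.5 to 86105.5 of it in knockout and 37167 to 47922 in control libraries, also without overlap. The sum therefore follows Gsn more than the other markers. In bulk tissue more cells of a type and more RNA per cell cannot be told apart, and the part of fibroblast content in the matrix results was not tested. Pdgfra had a change of 0.73 without control libraries 1 and 3.

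Cardiomyocyte markers differed less. Of 12, 2 were higher and 4 lower at an unadjusted p under 0.05, none was called, and their summed level was 2397540 to 2627850 in knockout and 2452310 to 3078740 in control libraries. Tnnt2, troponin T, had 0.39, Tnni3, troponin I, -0.57 and Myoz2, a Z-disc protein, -0.63 (adjusted p = 0.106, 0.104 and 0.11). Of 15 endothelial markers, 1 was higher and 1 lower, with Tek at 0.60, Flt1 at 0.58 and Esam at -0.25 (adjusted p = 0.122, 0.177 and 0.152). Of 16 macrophage markers, 3 were higher and 1 lower: Ccr2, of macrophages derived from blood monocytes, had 0.96, Mrc1 0.65 and Retnla -1.30 (adjusted p = 0.0892, 0.101 and 0.0757). The summed macrophage level was 12678 to 22337 in knockout and 12723 to 14376 in control libraries. Tnnt2, Tnni3, Myoz2, Tek and Flt1 had changes of 0.21, -0.26, -0.29, 0.11 and 0.071 without control libraries 1 and 3.

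Red cell transcripts were lower in knockout hearts. Of 9 tested erythroid markers 2 fell, 7 were lower at an unadjusted p under 0.05 and 5 did not overlap. Over all genes tested, 0.0443% were called lower, 12.1% were lower at an unadjusted p under 0.05 and 0.871% were lower without overlap. Beta-s, an adult beta-globin, stood at 8689, 6142, 8306, 11841 and 19869.5 in knockout libraries, against 61652, 32138, 70934, 29249.8 and 25898 in control libraries (log2 change -2.0, SE 0.38, adjusted p = 0.0289), and the alpha-globin Hba-a2 at 12856, 6442, 11449, 11827 and 22824 in knockout libraries, against 58942, 33305, 70225, 32098 and 29206 in control libraries (log2 change -1.80, SE 0.37, adjusted p = 0.0404). Control libraries 1 and 3 were the highest for both and knockout library 5 the highest of its group. Without those controls the changes were -1.52 and -1.38, no longer called (adjusted p = 0.42 and 0.515). Alas2, the erythroid enzyme of haem synthesis, had -1.67 (adjusted p = 0.0684). Globin copies are nearly identical, so the value of each copy is uncertain.

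Atrial marker transcripts varied between the ventricle samples. Of 17 tested atrial and conduction markers none was called and 7 were higher at an unadjusted p under 0.05. Myl4, the atrial essential light chain, stood at 8045, 2039, 49.7, 10652 and 1696 in knockout libraries, against 114, 53.0, 107, 434 and 78.4 in control libraries, a very wide spread among knockout libraries, with libraries 1 and 4 the highest (log2 change 3.86, SE 1.54, adjusted p = 0.115). Dkk3 had 3.13 and Nppa, the atrial natriuretic peptide, 2.45 (adjusted p = 0.0892 and 0.0862). The mean log2 level of the atrial markers was 9.09 ± 1.13 in knockout and 7.71 ± 0.43 in control libraries (SD, n = 5 each; exact permutation test, two-sided, p = 0.0556). With this level as a covariate 7 genes were called, all of them among the 33. Of 11 skeletal muscle markers none was called, with Tnni2 at -1.22, Ckm at -0.53 and Myh4 at 0.96 (adjusted p = 0.075, 0.11 and 0.0986). Ckm and Myh4 had changes of -0.30 and 0.54 without control libraries 1 and 3.

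The rapamycin arm, which shares no library with the vehicle arm, gave the same contrast in 10 other hearts. There 3 genes were called (0.0221%), Acsl1, Esr1 and A1cf. All 33 genes had the sign of the vehicle arm, as did 61.0% of all genes tested. Of the 33, 16 had an unadjusted p under 0.05 with that sign, against 2.18% of all genes (2.97% in either direction). The 16 include Acsl1, Esr1 and A1cf. Both arms use the same estimate of each gene's spread, and that estimate helped to choose the 33. The count of 16 is therefore a description and no independent support. For 32 of the 33 the change lay closer to 0 under rapamycin; the genes were chosen for their size in the vehicle arm, so this count has no test. Beside Acsl1, Esr1 and A1cf, Gabra3 and Gpm6b came closest to their vehicle values, with 0.95 and 0.66 (adjusted p = 0.578 and 0.474), while Mthfd2 had 0.28, Vcam1 0.15 and Srbd1 0.14. Acsl1 alone was farther from 0, at -3.46.

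**Figure D4:**
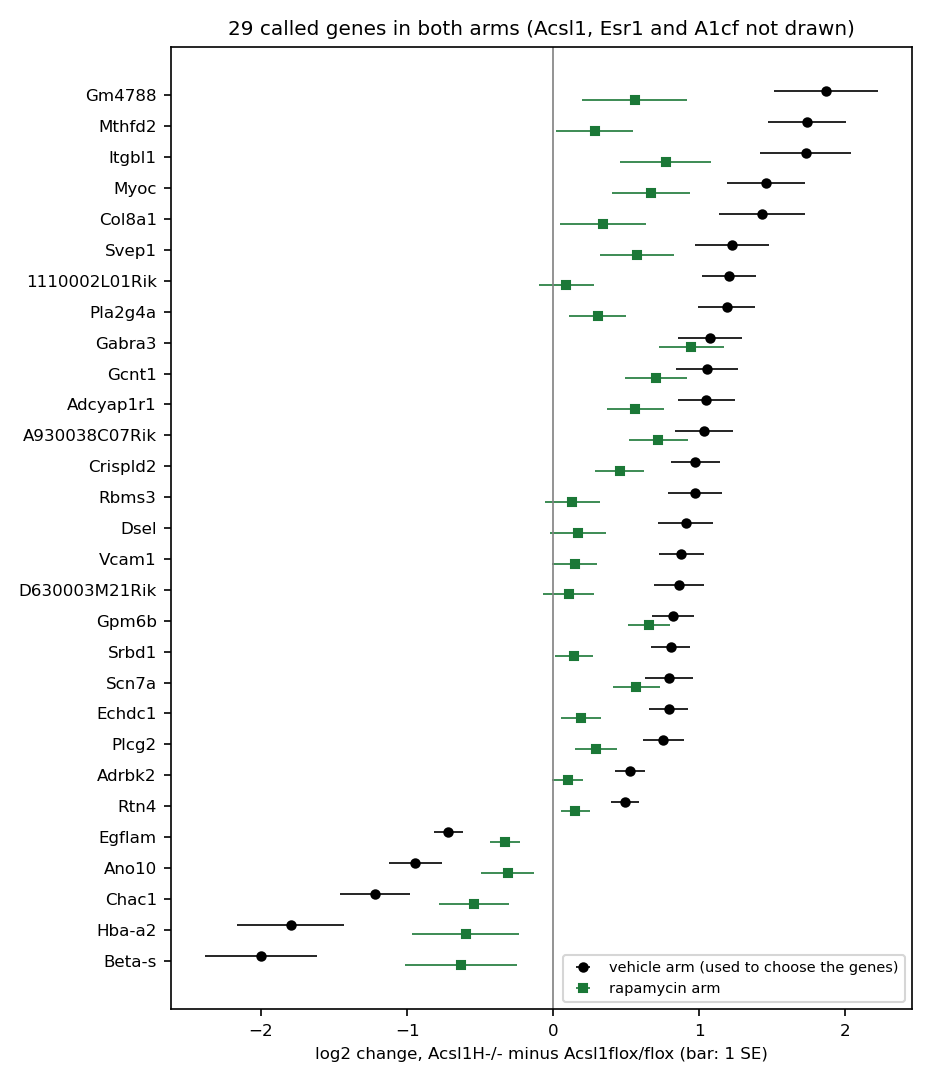
log2 change, knockout minus control, with 1 SE, of 29 called genes in the vehicle arm (circles, the values that chose them) and in the rapamycin arm (squares). All 29 keep their sign and lie closer to 0 in the rapamycin arm.

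The difference between the arms was tested by the interaction, in which 0 genes were called (0%) and the smallest adjusted p was 0.523. At an unadjusted p under 0.05 there were 1124 genes (8.30%), among them 20 of the 33. The vehicle change that chose the 33 is part of the interaction, so their count and order there are a description and no independent support. Among the 33, 1110002L01Rik and Mthfd2 had the smallest unadjusted p of limma's interaction test, 0.000426 and 0.000985, and both missed the adjusted threshold with all others. The knockout effects in the 2 arms are therefore not shown to differ for any gene.

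How many genes were called depended strongly on single libraries. Leaving out knockout library 1 or 2 left 11 and 8 called genes, and leaving out control library 1 or 3 left 8 and 9, all of them among the 33. Leaving out knockout library 5 gave 2565 called genes, control library 5 gave 3089 and control library 4 gave 343, each including all 33. Without control libraries 1 and 3 together 4 genes were called, Acsl1, Esr1, A1cf and Egflam, and with the length score as a covariate 6, of which 5 were those 4 and Mthfd2. The directions of the 33 did not turn in any of these fits.

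**Figure D5:**
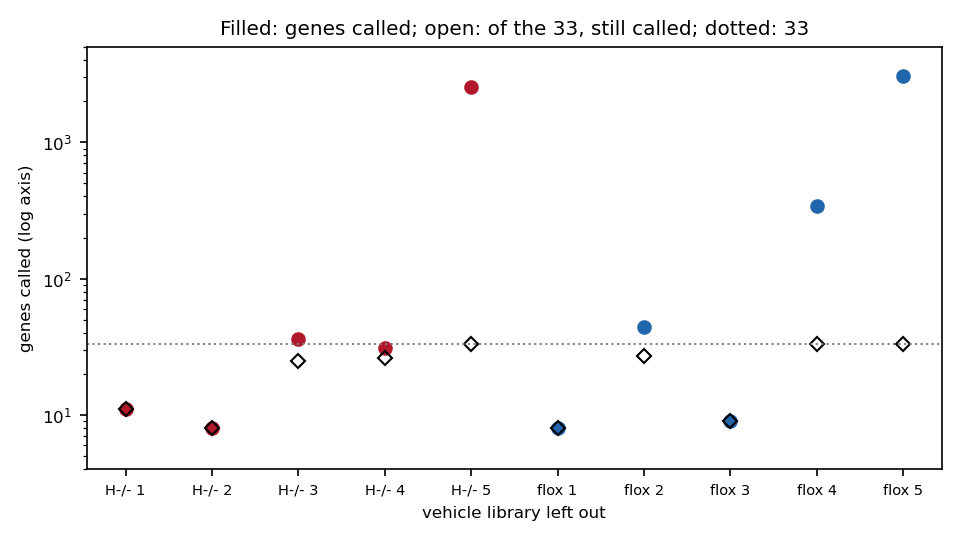
Genes called in the vehicle arm (log axis) when each of the 10 vehicle libraries is left out in turn, knockout libraries in red and control libraries in blue; open diamonds count how many of the 33 remain called, and the dotted line marks 33. The counts run between 8 and 3089, and the 33 stay called in full without knockout library 5, control library 4 or control library 5.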

How the data were processed

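Per the labels' protocols, ventricle RNA was isolated with an RNeasy kit, TruSeq poly(A) libraries were prepared, and 4 pools were sequenced, with libraries of all 4 groups in each. Per the submitters' processing notes the build was mm9 and the tools were Picard 1.64, SAMtools and RSEM; no aligner or further version is given in those notes. Per gene, the authors deposited a normalized signal: estimates of RSEM, scaled so that the upper quartile of values above 0 is near 1000 (996.6 to 1000 in the file). The signal values are not counts, and no count test was run. Low values were whole multiples of 1 step for 76.3% to 88.4% of genes (within 0.05 reads), too few to treat reads as recovered; the step gave the implied depth.

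Values were taken as log2(value + 1). All 20 libraries entered 1 limma 3.58.1 model (R 4.3.3, intensity trend) with a mean per group. Adjustment over 13548 genes followed Benjamini and Hochberg, with a threshold of 0.05. Tests are two-sided. The fit was tested on simulated data. The long-minus-short score contrasts genes whose longest transcript is at least 4325 bases with those of at most 2677 bases. RefSeq GRCm38.p6 matched 21562 of 21705 genes by identifier. Named are Acsl1, every gene called, 20 fixed heart and fuel genes, and the 2 to 4 members with the smallest p of each list described, except that some of these, 1 called gene among them, are not reported here. The comparison, the 55 gene lists and the rule were chosen with earlier results of these data known, so no list count is independent support. Lists were described by counts and medians, without a test. Alternatives were pseudocounts of 0.5 and 10, no filter, a mean of at least 100, quantile and median-ratio scaling, the replicate number as a block, a pool term, only the vehicle libraries, robust empirical Bayes with array weights, each library left out, control libraries 1 and 3 left out, and, added after seeing the data, the length score and the atrial level as covariates.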

Additional observations from a re-analysis of the deposited data

Results flagged for a closer look

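In 138 named genes, each group of 5 libraries was searched for a single library far from the other 4, and 5 of 276 groups held one; chance flags about 1 group in 20. Trib3 was at 89.3 in knockout library 4, against 126 to 137 in the other 4 knockout libraries. Adamtsl2 was also low in that library, at 259, against 455 to 537. Akap6 was at 2548 in knockout library 5, against 5050.2 to 6650.2 in the others of its group, and Gsn was high in the same library, at 86106, against 56582 to 60748. Acss2 was at 1881 in control library 3, one of the libraries that stood apart, against 1220.5 to 1298 in the other controls. None of these 5 genes was called in the comparison of knockout with control.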

How the results depend on the processing

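The direction of all 33 called genes held in every alternative that tested them, and Acsl1, Esr1 and A1cf stayed called in each. Against 33 called genes, 56 were called with a pool term, 12 with robust empirical Bayes and array weights, 3 with only the vehicle libraries in the fit, 4 without control vehicle libraries 1 and 3, 6 with the long-minus-short score and 7 with the atrial level as a covariate, and between 8 and 3089 when 1 library was left out. Pseudocounts, filters, quantile and median-ratio scaling gave 28 to 47. Quantile normalization moved the median change of all genes to -0.031 (0.072 with the authors' scaling). The replicate number as a block gave 49 called genes, 29 of them among the 33. The deviations of same-numbered libraries correlated at 0.21, 0.20, -0.084, 0.061 and -0.52. The labels state no pairing by number, and these few correlations cannot decide whether one exists. The Acsl1 change lay between -3.59 and -2.83, and the interaction called 0 genes in every alternative run; it could not be fitted with only the vehicle libraries.

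Of 3160 values of named genes under alternatives 41 changed sign, all in 12 genes that were not called; the cause was not tested. With the length score as a covariate Myh6 was at -0.061, Ppargc1a at -0.036, Hk2 at -0.038, Akap6 at -0.0083, Flt1 at -0.077, Acsl4 at -0.078, Pdk4 at -0.043, Ucp3 at -0.15, Trib3 at 0.091 and Ctgf at 0.0015. Without control libraries 1 and 3, Pdk4 was at -0.28, Ucp3 at -0.34, Acsl4 at -0.046, Trib3 at 0.026 and Ctgf at 0.0089. With robust empirical Bayes and array weights, Ucp3 was at -0.11 and Ctgf at 0.048. Median-ratio scaling put Cpt1b at -0.049 and Acsl5 at -0.024, quantile normalization Acsl5 at -0.050, and the pool term Cpt1b at -0.016. With the atrial covariate Cpt1b was at -0.0023, Trib3 at 0.058 and Acsl5 at -0.077. Leaving out 1 library gave ranges of -0.058 to 0.087 for Cpt1b, -0.13 to 0.75 for Pdk4, -0.070 to 0.60 for Ucp3, -0.080 to 0.089 for Trib3, -0.29 to 0.15 for Ctgf and -0.070 to 0.12 for Acsl5. Of 1265 list medians under alternatives 68 moved by more than the spread between replicates, 20 of them with the length score and 13 without control libraries 1 and 3. The depth, 11.5 to 20.2 M implied reads per vehicle library, limits most the genes with values near 10, where 1 read is a large step.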

Other observations

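Some gene groups outside the comparisons above had values worth a look, none with a called gene. The 6 tested genes of ketone body metabolism had a median log2 change of 0.42 in knockout hearts, with 3 higher and 1 lower at an unadjusted p under 0.05, and 0.059 with the length score as a covariate. The 25 interferon-induced genes had a median of 0.33, with 5 higher, and their summed level ran over 6642 to 18176 in knockout and 7478 to 8786 in control libraries, so the spread lay within the knockout group. The 11 epicardial and mesothelial markers had a median of -0.34, and -0.62 without control libraries 1 and 3.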
